A study of Mus musculus with 24 samples.

Results

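The genes described here are 10 of the 55177 genes that the deposited transcript tables cover: Vgf, Pcsk1, Pcsk2, Scg2, Nrn1, Nptx1, Nptx2, Inhba, Chga and Chgb. They were chosen by name, as genes of secreted proteins and of dense-core granules that are associated with neuronal activity. Earlier results of these data were known at that choice, so counts of members called are a description. The estimated counts of their transcripts were summed in all 24 libraries. RNA was sequenced from cultured cortical neurons of mouse embryos at embryonic day 16.5. The night before, every culture was silenced with 1 µM tetrodotoxin, a blocker of sodium channels, plus 100 µM D-AP5, an NMDA receptor antagonist. Depolarization was by KCl at 50 mM, applied for 30 min.

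At 7 days in vitro (DIV7), 2 resting and 2 depolarized cultures of naive wild-type neurons with 0.1% DMSO were sequenced. At 18 days (DIV18), 4 kinds of culture carried a guide RNA against Smarcc2 (KO), a subunit of BAF chromatin remodelling complexes, and 1 kind carried a non-targeting guide (NT). NT gave 2 resting and 2 depolarized libraries, KO with empty vector 3 and 3, and KO with wild-type Smarcc2 (WT) 2 and 3. KO with the substituted protein S586E gave 3 resting libraries and KO with S586A gave 2 depolarized libraries. The guides acted in whole cultures, not in a selected clone, and the promoter of the constructs is not given in the sources used here. The cortex of each embryo is named in the protocol as a biological replicate, but the labels do not say which libraries shared an embryo, so p-values measure the spread between these libraries, which may be technical.

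Neurons pack neuropeptides and some growth factors into dense-core granules, which empty in response to calcium entry. Granins (Chga, Chgb, Scg2 and the related Vgf) help to form the granule and are themselves cut into peptides, and the prohormone convertases Pcsk1 and Pcsk2 make those cuts. Pentraxins Nptx1 and Nptx2 are secreted at synapses and cluster AMPA receptors. Neuritin (Nrn1) is a membrane-anchored factor of neurite and synapse growth, and Inhba encodes the subunit of activin A. Several of these genes are textbook targets of calcium signalling, in which the factor CREB binds the cyclic AMP response element (CRE).

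Promoters are shown because that element is a well known link between depolarization and gene induction. RefSeq promoters (GRCm38.p6) were matched by symbol for 6 of the 10 members, and Vgf, Nrn1, Nptx1 and Nptx2 have no entry. Below are the 100 bases before each RefSeq start, 5′ to 3′ in the sense of the gene, with every TGACG or its complement CGTCA in capitals; the palindrome TGACGTCA, the full CRE, holds both.
Pcsk1: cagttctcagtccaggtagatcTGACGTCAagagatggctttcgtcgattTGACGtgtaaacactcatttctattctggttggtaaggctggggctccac
Scg2: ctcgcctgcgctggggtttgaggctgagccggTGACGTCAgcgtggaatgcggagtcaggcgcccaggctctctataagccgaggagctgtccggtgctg
Chgb: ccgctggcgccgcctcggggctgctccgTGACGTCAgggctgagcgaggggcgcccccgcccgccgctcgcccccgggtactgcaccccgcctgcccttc
Pcsk2: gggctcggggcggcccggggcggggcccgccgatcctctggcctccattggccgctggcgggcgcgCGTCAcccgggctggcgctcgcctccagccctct
Chga: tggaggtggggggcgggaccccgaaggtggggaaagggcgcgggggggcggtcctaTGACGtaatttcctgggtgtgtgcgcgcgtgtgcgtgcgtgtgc
Inhba: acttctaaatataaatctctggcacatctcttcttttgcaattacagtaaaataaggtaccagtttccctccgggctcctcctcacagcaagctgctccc
These stretches lie at chr13:75089757-75089856, plus strand (Pcsk1), chr1:79440027-79440126, minus strand (Scg2) and chr2:132781542-132781641, plus strand (Chgb). They lie at chr2:143546033-143546132, plus strand (Pcsk2), chr12:102554841-102554940, plus strand (Chga) and chr13:16011751-16011850, plus strand (Inhba). The full CRE was present in Pcsk1, Scg2 and Chgb, where it began at -78, -68 and -72 from the start, against 1.79% of 32851 mouse promoters of 300 bases. A shorter TGACG or CGTCA alone stood at -34 in Pcsk2 and at -44 in Chga, and Pcsk1 held a further copy at -50. At least 1 such short match was present in 20.8% of all promoters. Inhba had neither within its 300 bases. On both strands, TGACTCA (an AP-1 site; 5.2% of promoters) was in none of the 6. GCGTGGGCG or GCGGGGGCG (Egr sites; 3.47% of promoters) were in Pcsk2, at 3 positions, and in Chgb, and the CArG box (1.63%) was in none of the 6. Positions count from the RefSeq start; for Pcsk1, Scg2 and Chgb, GENCODE M21 begins the gene upstream of it, so all or part of each of these windows lies within its gene model. A match describes letters in a window, and none of these data measure binding.

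The DIV7 libraries held between 24536056 and 30135576 estimated counts, those of DIV18 between 14510199 and 24024959. Poly(A) selection was used at DIV7 (4 libraries) but removal of ribosomal RNA at DIV18 (20 libraries), so age and library type cannot be told apart. Smarcc2 was at 237 to 283 CPM (normalised counts, scaled to a library of standard size) in NT and 47.1 to 64.1 CPM in KO with vector. It was at 737 to 1089 CPM with WT, 1164 to 1276 with S586E and 1303 to 1340 with S586A, all above NT. Neuronal markers (6 genes) summed to 3038 to 4106 CPM at DIV18 and none was at 0, whereas 6 microglial markers summed to at most 8.64 CPM in any group. The early-response gene Fos checked the stimulus: it stood at 3.65 and 4.47 CPM at rest and at 598 and 618 CPM after KCl at DIV7. At DIV18, Fos went from 7.52 and 7.25 to 113 and 38.5 CPM in NT. After KCl it was at 101, 111 and 51.2 CPM in KO with vector and at 197, 106 and 32.7 CPM in KO with WT. With S586A it was at 99.8 and 101 CPM. The part of this spread in the DIV18 responses was not tested.

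All 10 members passed the filter on low counts at both ages. By length-normalised level (TPM), granins led at DIV18: Scg2 at 203 ± 56.3 TPM (SD, n = 20 libraries over all groups), Vgf at 184 ± 43.2, Chgb at 158 ± 29.7 and Chga at 85.9 ± 9.12. Nptx1 was as abundant as Chga, at 91.3 ± 14.3 TPM. Below them came Pcsk2 at 26.0 ± 4.33, Nrn1 at 19.1 ± 3.07, Nptx2 at 8.82 ± 2.15, Pcsk1 at 2.86 ± 0.776 and Inhba at 0.854 ± 0.257 TPM. In this order the libraries of Scg2, Vgf and Chgb overlapped, as did those of Chgb and Nptx1 and those of Nptx1 and Chga. Lower down, those of Pcsk2 and Nrn1 overlapped, as did those of Nrn1 and Nptx2. Pcsk1 did not reach Nptx2: its highest library was at 4.64 TPM and the lowest of Nptx2 at 5.16. The 2 convertases thus differed widely in level, with Pcsk2 at 19.7 to 36.4 and Pcsk1 at 1.52 to 4.64 TPM. At DIV7 the order was again led by Scg2 (413 ± 80.4 TPM, n = 4), Vgf (303 ± 112) and Chgb (184 ± 21.2), and Inhba was last (9.31 ± 2.49). At rest, though, Pcsk1 (4.77 and 5.70 TPM) was below Inhba (8.77 and 12.8), and after KCl it was above it.

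The first comparison asked which of these genes respond within 30 min of KCl at DIV7. The convertase Pcsk1 rose 5.0-fold, the granin Vgf 1.66-fold and the neurite growth factor Nrn1 1.30-fold. These 3 of 10 members were called at an adjusted p under 0.05 (edgeR quasi-likelihood test, Benjamini-Hochberg over all 19822 genes tested), where 17% of all genes tested were called. All 3 were higher after KCl; of all genes called, 1455 were higher and 1916 lower. The median log2 fold change of the 10 members was 0.27, beside -0.0014 over all genes.

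Pcsk1 lies at chromosome 13, bases 75089826 to 75134861, plus strand (ENSMUSG00000021587.5; gene positions are GENCODE M21 on GRCm38). It was at 15.7 and 13.2 CPM at rest and at 75.2 and 70.0 CPM after KCl. Both depolarized libraries were far above both resting libraries. Its log2 fold change was 2.32 ± 0.09 (SE, n = 2 against 2; adjusted p = 2.33e-05, edgeR). Counted from the highest log2 fold change down, it ranked 235 of the 19822 genes. Pcsk2, the other convertase, was at 131 and 121 CPM at rest and at 115 and 115 CPM after KCl, lower without overlap but not called (log2 fold change -0.13 ± 0.05, adjusted p = 0.15, edgeR).

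Vgf (chromosome 5, bases 137026392 to 137033351, plus strand) was at 293 and 233 CPM at rest and at 491 and 385 CPM after KCl. The groups did not overlap, with a log2 fold change of 0.74 ± 0.13 (adjusted p = 0.012, edgeR). Scg2, the most abundant granin, went from 525 and 411 CPM to 674 and 531 CPM. Its lower depolarized library was barely above its higher resting one, and the change of 0.36 ± 0.14 was not called (adjusted p = 0.11, edgeR). The chromogranins overlapped between states. Chga was at 161 and 147 CPM at rest and 154 and 153 after KCl, and Chgb at 292 and 230 and then at 296 and 255. Their 95% intervals were -0.13 to 0.13 for Chga and -0.19 to 0.34 for Chgb on the log2 scale. Of the 3 members in which a full CRE was found, Pcsk1 was thus called, and Scg2 and Chgb were not. Vgf, also called, and Nrn1, described next, had no promoter entry, so whether they hold a CRE was not examined.

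Nrn1 (chromosome 13, bases 36725361 to 36735131, minus strand) was at 31.3 and 29.8 CPM at rest and at 41.1 and 38.6 CPM after KCl. The change was small and its groups did not overlap (log2 fold change 0.38 ± 0.07, adjusted p = 0.012, edgeR). It was not called without resting library 2 (adjusted p = 0.074). The pentraxins were not called: Nptx1 was at 146 and 92.0 CPM and then at 155 and 112, and Nptx2 at 41.8 and 26.2 and then at 57.2 and 36.7. In both pentraxins library 1 was above library 2 in each state, and the states overlapped, though each numbered library was higher after KCl. The same order of libraries held in Vgf, Pcsk1, Scg2, Nrn1, Chga and Chgb. The main fit took no account of library numbers, and fits with a block by number are given with the sensitivity results. The intervals were wide, -0.34 to 0.68 for Nptx1 and -0.13 to 1.06 for Nptx2. Inhba was at 19.8 and 24.2 CPM at rest and lower, at 14.7 and 17.7 CPM, after KCl, without overlap, but was not called (log2 fold change -0.44 ± 0.13, adjusted p = 0.061, edgeR).

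**Figure D1:**
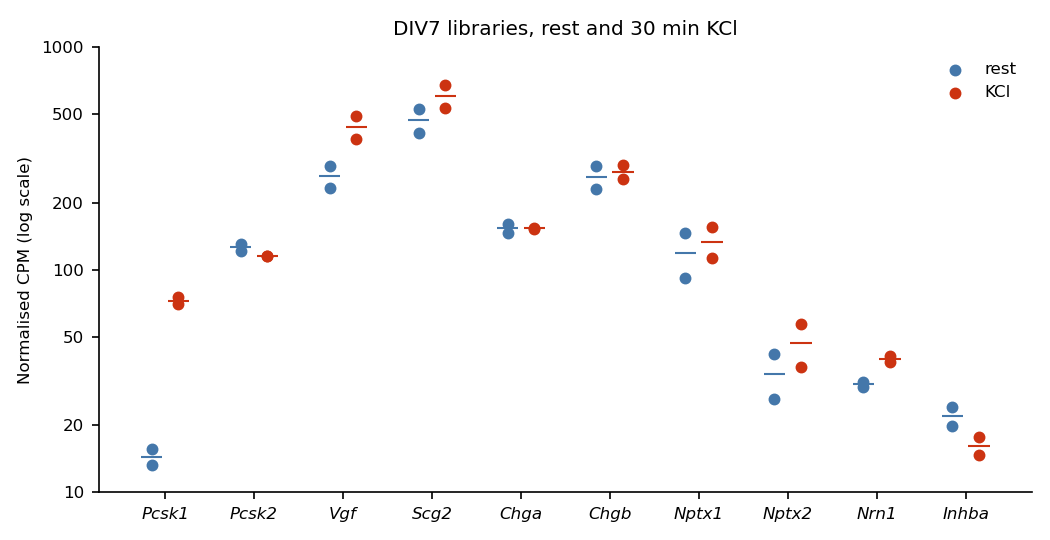
Normalised CPM (log axis) of the 10 members in the 4 DIV7 libraries; points are libraries, bars group means, blue rest and red 30 min KCl. Pcsk1 moves from 13.2 and 15.7 CPM to 70.0 and 75.2 CPM, Vgf and Nrn1 move less, and Chga and Chgb overlap between states.

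The estimated counts also split by transcript. The retained-intron transcript Pcsk1-202 had no counts at rest and held 1.02% and 1.44% of the Pcsk1 counts after KCl. The main protein-coding transcript Pcsk1-201 held 98.4% and 98.6% after KCl. Within Vgf, the share of Vgf-204 was 30.7% ± 0.81 at rest and 23.5% ± 2.85 after KCl (SD, n = 2). The minor Vgf-203 was at 2.06% ± 0.76 and then 4.63% ± 0.58. Within Nrn1, Nrn1-202 held 4.55% ± 0.79 at rest and 0.81% ± 0.05 after KCl. These transcripts were chosen after their values were seen, and with 2 libraries a state, lack of overlap was common: at the level of genes, 28.5% of all genes were higher and 30.7% lower after KCl without overlap. At DIV18, Vgf-204 held 54.9% ± 7.30 of the Vgf counts in resting NT and 40.6% ± 1.11 in resting KO with vector, without overlap, whereas after KCl the 2 kinds of culture overlapped. Scg2-202 held 27.2% to 32.8% of the Scg2 counts at DIV7 and 54.3% to 66.6% at DIV18. Shares are kallisto's estimates for transcripts that share most of their sequence, and they were not tested.

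Genes that work with the members were counted from lists chosen by function, and each count is to be read beside the 17% of all genes that were called at DIV7: shares near it say nothing about a list. Of 17 genes of granule making and release, 2 rose and 1 fell at DIV7, with a median log2 fold change of 0.13. Pam, which amidates peptides, went from 144 ± 15.7 to 189 ± 23.8 CPM and Syt4, a granule synaptotagmin, from 544 ± 4.08 to 682 ± 6.73 CPM. Furin, a convertase of the constitutive pathway, fell from 33.0 ± 1.32 to 26.3 ± 1.80 CPM. The log2 changes were 0.40, 0.33 and -0.33 (adjusted p = 0.038, 0.0019 and 0.032, edgeR). Of 15 neuropeptide genes tested (16 listed), only Nmb was called, lower at 2.02 ± 0.03 against 3.33 ± 0.15 CPM (log2 fold change -0.72, adjusted p = 0.037, edgeR). Of 6 genes of pentraxin and AMPA receptor function, only Adam17, a protease that sheds surface proteins, was called, at 23.1 ± 0.46 against 13.7 ± 0.04 CPM (0.76, adjusted p = 0.0018, edgeR). Nrn1l, the relative of Nrn1, did not pass the count filter at DIV7.

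The activin pathway moved in both directions, with 2 of 14 genes higher and 4 lower, and a median of -0.15. The activin antagonist Fstl3 had the largest change of the list, from 1.58 ± 0.35 to 0.49 ± 0.07 CPM (log2 fold change -1.68, adjusted p = 0.015, edgeR), at a low level. The receptors Acvr1b (-0.28) and Acvr2b (-0.51) and the inhibin subunit Inha (-0.34) also fell (adjusted p = 0.015, 0.035 and 0.046, edgeR). Smad2, which carries the signal to the nucleus, and the decoy receptor Bambi rose by 0.26 and 0.77 (adjusted p = 0.036 and 0.034, edgeR). Of these 11 list genes, only Syt4 was called under all 9 alternatives of processing or left-out library. Adam17 missed the threshold under 1, Pam and Acvr1b under 3, Fstl3 and Smad2 under 4, Furin, Inha and Bambi under 5, and Nmb and Acvr2b under 6. Markers of 6 astrocyte genes summed to 495 to 564 CPM at rest and 474 to 479 after KCl, with 2 of 6 called lower; in bulk RNA, fewer cells of a type and less RNA per cell cannot be told apart, and their part in these results was not tested.

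The same stimulus was then examined at DIV18, in 3 kinds of culture. No member was called in NT, in KO with vector or in KO with WT, where 0.00955%, 0.0716% and 0.043% of the 20940 genes tested were called (edgeR). Fos was called in KO with vector and KO with WT but not in NT (log2 fold change 3.36 ± 0.61, adjusted p = 0.091, edgeR), and few genes of any kind were called. At an unadjusted p under 0.05, 906, 2167 and 1040 genes passed, and none of the 10 members was among them in any of the 3 cultures. In the mean response over the 3 cultures, 0.449% of genes and no member were called.

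Pcsk1 in NT was at 13.8 and 14.2 CPM at rest and at 16.3 and 13.1 CPM after KCl. The depolarized libraries lay on either side of the resting ones, and the log2 change of 0.07 had a 95% interval of -0.39 to 0.54. In KO with vector it was at 15.5, 14.7 and 22.3 CPM at rest and at 20.5, 19.6 and 25.9 after KCl (interval -0.04 to 0.71). In KO with WT it was at 15.5 and 16.3 and then at 20.2, 15.9 and 21.7 CPM (interval -0.14 to 0.69). All 3 intervals ended below 1 on the log2 scale. Averaged over the 3 cultures, the granins Scg2 and Vgf had mean responses of 0.27 (interval -0.0042 to 0.55) and 0.26 (-0.02 to 0.54), and Pcsk1 one of 0.23 (-0.01 to 0.47). Vgf in NT was at 469 and 379 CPM at rest and at 405 and 705 after KCl, so 1 depolarized library was within the resting range and 1 well above it. In KO with vector it was at 434, 579 and 596 CPM at rest and at 479, 633 and 712 after KCl, and in KO with WT at 457 and 475 and then at 384, 626 and 609. In all 3 kinds of culture the states of Vgf overlapped.

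Pcsk2 had a mean response of -0.23 (interval -0.49 to 0.03), and Nptx1 of -0.12 (-0.31 to 0.08). In KO with WT, Nptx2 went from 20.2 and 19.9 to 25.8, 24.4 and 23.3 CPM, without overlap but uncalled (log2 fold change 0.29, adjusted p = 0.98, edgeR). In that comparison 11.3% of all genes tested were higher without overlap and 10.4% lower. Nptx1 was lower there without overlap, from 574 and 561.4 to 508, 560.9 and 396 CPM. In NT, Scg2 went from 415 and 322 to 424 and 534 CPM, higher without overlap, as were 16.7% of all genes. Neither was called. Nptx2, Inhba, Nrn1, Chga and Chgb had mean responses between -0.02 and 0.09. Their intervals differed in width, from -0.12 to 0.08 for Chga to -0.32 to 0.32 for Inhba, whose level was lowest. Chgb after KCl was at 561 and 440 CPM in NT, 580, 526 and 481 in KO with vector and 636, 504 and 483 in KO with WT, a spread that covered all resting libraries of these cultures except 1 at 425. Nrn1, called at DIV7, was at 27.9 and 41.5 CPM in resting NT and at 34.0 and 30.8 CPM after KCl, inside the resting pair. Of the 17 granule, 16 neuropeptide, 6 pentraxin and AMPA receptor and 14 activin genes and Nrn1l, none was called in the mean response. Their medians were -0.00028, 0.05, -0.02 and -0.0072 for the 4 lists, beside -0.0020 over all genes.

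**Figure D2:**
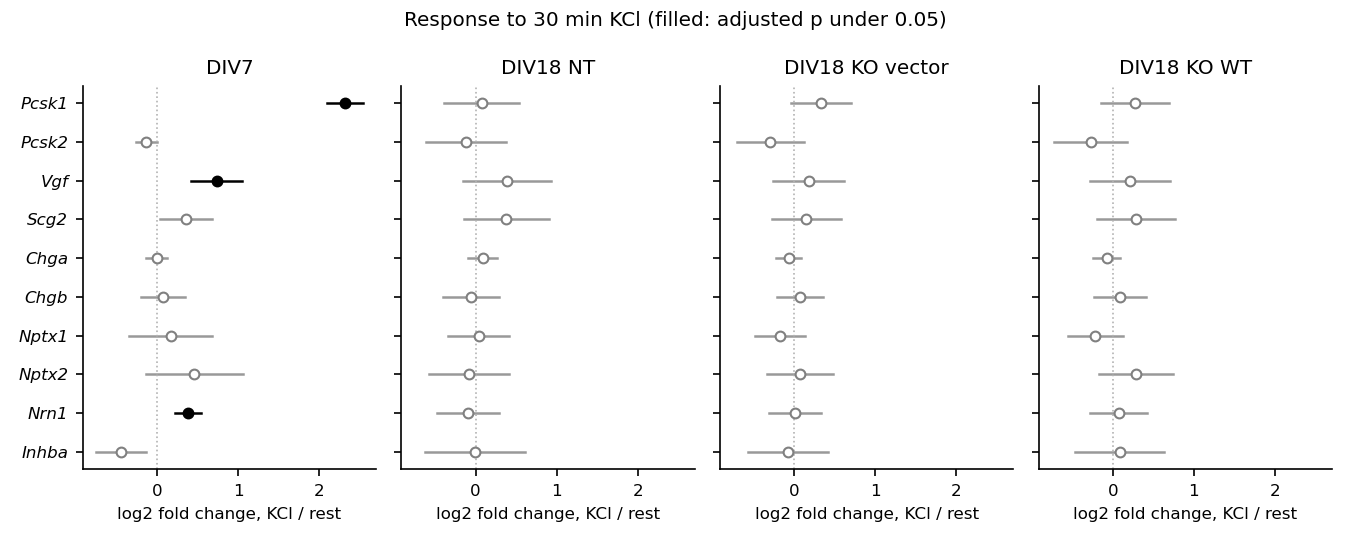
Log2 fold change of the 10 members, 30 min KCl against rest, at DIV7 and in 3 kinds of DIV18 culture; points are edgeR estimates, lines 95% intervals, filled points called. Pcsk1 stands at 2.32 at DIV7 and between 0.07 and 0.33 at DIV18, and no DIV18 point is filled.

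Whether a response differed between ages was tested in a joint fit of all 24 libraries, chosen after the data were seen. The Pcsk1 response at DIV7 exceeded that of DIV18 NT by 2.27 ± 0.29 on the log2 scale (interval 1.66 to 2.87, adjusted p = 7.04e-05, edgeR). Pcsk1 was the only member called, where 1.82% of 22459 genes were called. For Vgf the difference was 0.36 (interval -0.38 to 1.11), for Nrn1 0.49 (-0.01 to 1.00) and for Scg2 0.0040 (-0.72 to 0.73). The Fos response also differed, by 3.88 ± 0.84 (adjusted p = 0.015, edgeR). Age, library type, DMSO and the guide differ together between these groups and cannot be told apart.

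The responses were also compared between constructs at DIV18. The response of KO with vector minus that of NT called no gene (0%; 1845 at an unadjusted p under 0.05 in edgeR, none of them a member; 9 called by DESeq2), and that of KO with WT minus KO with vector called none either (0%; 768 unadjusted, no member; 0 by DESeq2). For Pcsk1 the differences were 0.26 (interval -0.33 to 0.85) and -0.05 (-0.61 to 0.50). For Vgf they were -0.21 (-0.90 to 0.49) and 0.03 (-0.63 to 0.69). These intervals leave room for differences of up to 0.90 in size, so the libraries do not show that the responses were alike.

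What these genes do without Smarcc2 was examined as KO with vector against NT, in each state. At rest no member was called, where 5.9% of genes were (1236 of 20940; edgeR). After KCl only Chga was called, lower, where 2.67% were. Averaged over both states, Scg2 was higher and Chga lower, where 11.2% were. The single-state comparisons are parts of that average, and they share their libraries with the KCl responses above.

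Scg2 (chromosome 1, bases 79434669 to 79440120, minus strand) was at 415 and 322 CPM in resting NT and at 491, 603 and 772 CPM in resting KO with vector. After KCl it was at 424 and 534 CPM in NT and at 529, 682 and 858 CPM in KO with vector. The groups did not overlap at rest, where 16.1% of all genes tested were higher without overlap. After KCl the lowest vector library was just under the higher NT library. The mean difference was 0.64 ± 0.16 on the log2 scale (1.56-fold, adjusted p = 0.017, edgeR), with 0.75 at rest (adjusted p = 0.064) and 0.53 after KCl (adjusted p = 0.26). Without resting NT library 2 the adjusted p was 0.099, and without depolarized NT library 1 it was 0.083. NT has no library numbered 3, and in KO with vector that number held the highest Scg2; with only libraries 1 and 2 of each group the mean difference was 0.46 (adjusted p = 0.035, edgeR).

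Chga (chromosome 12, bases 102554969 to 102565028, plus strand) varied least of the 10 members, 1.38-fold between the lowest and highest DIV18 library. It was at 190 and 194 CPM in resting NT and at 159, 172 and 173 CPM in resting KO with vector. After KCl it was at 190 and 218 CPM in NT and at 159, 158 and 163 CPM in KO with vector. Every vector library lay below every NT library of its state, as did those of 18.2% of all genes tested at rest and 18.5% after KCl. The difference was -0.35 ± 0.08 after KCl (adjusted p = 0.027, edgeR), -0.19 ± 0.08 at rest (adjusted p = 0.18) and -0.27 ± 0.06 on average (adjusted p = 0.0046, edgeR). The call after KCl was lost without NT library 2 (-0.25, adjusted p = 0.43), without any of the vector libraries (adjusted p = 0.065 to 0.081) and with only libraries 1 and 2 (adjusted p = 0.060). The average kept its call under all 17 alternatives, with adjusted p from 0.00021 to 0.040.

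The other 8 members were not called. Pcsk1 came nearest, with a mean difference of 0.44 ± 0.14 (adjusted p = 0.051, edgeR). It was called under 5 of 17 alternatives, and with only libraries 1 and 2 of each group the difference was 0.28. Nptx1 was at 644 and 622 CPM in resting NT and at 612, 602 and 468 in resting KO with vector, a mean difference of -0.28 (interval -0.52 to -0.04, adjusted p = 0.13, edgeR) over both states. Inhba, at 3.44 and 3.81 CPM in resting NT and at 5.71, 4.80 and 4.27 in resting KO with vector, had a mean difference of 0.41 (interval 0.01 to 0.81). Vgf (0.24), Pcsk2 (0.07), Nrn1 (-0.23), Nptx2 (-0.10) and Chgb (0.01) had intervals that included 0. The median of the 10 members was 0.04, beside 0.02 over all genes.

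Partner genes moved in both directions in the same average, in which 11.2% of all genes were called. Of the 17 granule genes, 3 rose (Pam, Rab27b and Syt4, by 0.25, 0.33 and 0.26) and 2 fell (Pcsk1n and Pcsk6, by 0.30 and 0.62 on the log2 scale), with a median of 0.02. Pcsk1n, whose product inhibits Pcsk1, was at 289 ± 5.74 CPM in resting NT and 250 ± 19.1 in resting KO with vector, and at 272 ± 5.23 and 206 ± 10.6 after KCl (adjusted p = 0.012, edgeR). The neuropeptide gene Nmb rose by 1.11, from 4.49 ± 0.50 to 10.0 ± 2.49 CPM at rest (adjusted p = 0.0025, edgeR), as 1 of 16 neuropeptide genes. The AMPA receptor genes Gria2 (0.36) and Gria4 (0.21) and the activin receptor gene Acvr2b (0.51) rose as well, 2 of 6 and 1 of 14 genes. By state, Cadps2 (1.03) and Pcsk6 (-0.96), Nmb (1.16) and Gria4 (0.36) were called at rest, and Pam (0.41), Syt4 (0.35), Pcsk1n (-0.40) and Vip (-0.71) after KCl. Of the calls in the average, Syt4 and Nmb held under all 17 alternatives; Pcsk1n missed the threshold under 1, Pam, Rab27b and Acvr2b under 2, Gria2 under 5, Gria4 under 9 and Pcsk6 under 11. Every call by state was lost under some of 12 alternatives: at rest Gria4 under 4, Nmb under 5, Cadps2 under 7 and Pcsk6 under 8, and after KCl Pam under 5 and Pcsk1n, Syt4 and Vip under 6.

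Markers of other cells moved with this comparison. Astrocyte markers summed to 1324 to 1573 CPM in resting NT and 896 to 1228 in resting KO with vector, and to 1253 to 1739 and 727 to 859 CPM after KCl; in the average 4 of 6 were called lower. Markers of the oligodendrocyte lineage summed to 195 to 205 and 133 to 151 CPM at rest and to 129 to 211 and 112 to 132 after KCl, with 5 of 7 called lower and Sox10 at 0 counts in all resting vector libraries. Of the 6 general neuronal markers 2 were called lower (Snap25 and Nefl), and of the 6 excitatory ones 2 higher (Slc17a6 and Tbr1). Inhibitory neuron markers summed to 303 to 312 CPM in NT and 171 to 215 in KO with vector after KCl, and to 198 to 261 and 140 to 356 at rest, with none of 6 called. Microglial markers summed to 6.79 to 8.11 CPM in resting NT and 3.55 to 3.82 in resting KO with vector, where 3 of 6 were at 0. Their part in the values of Scg2, Chga and the partner genes was not tested.

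**Figure D3:**
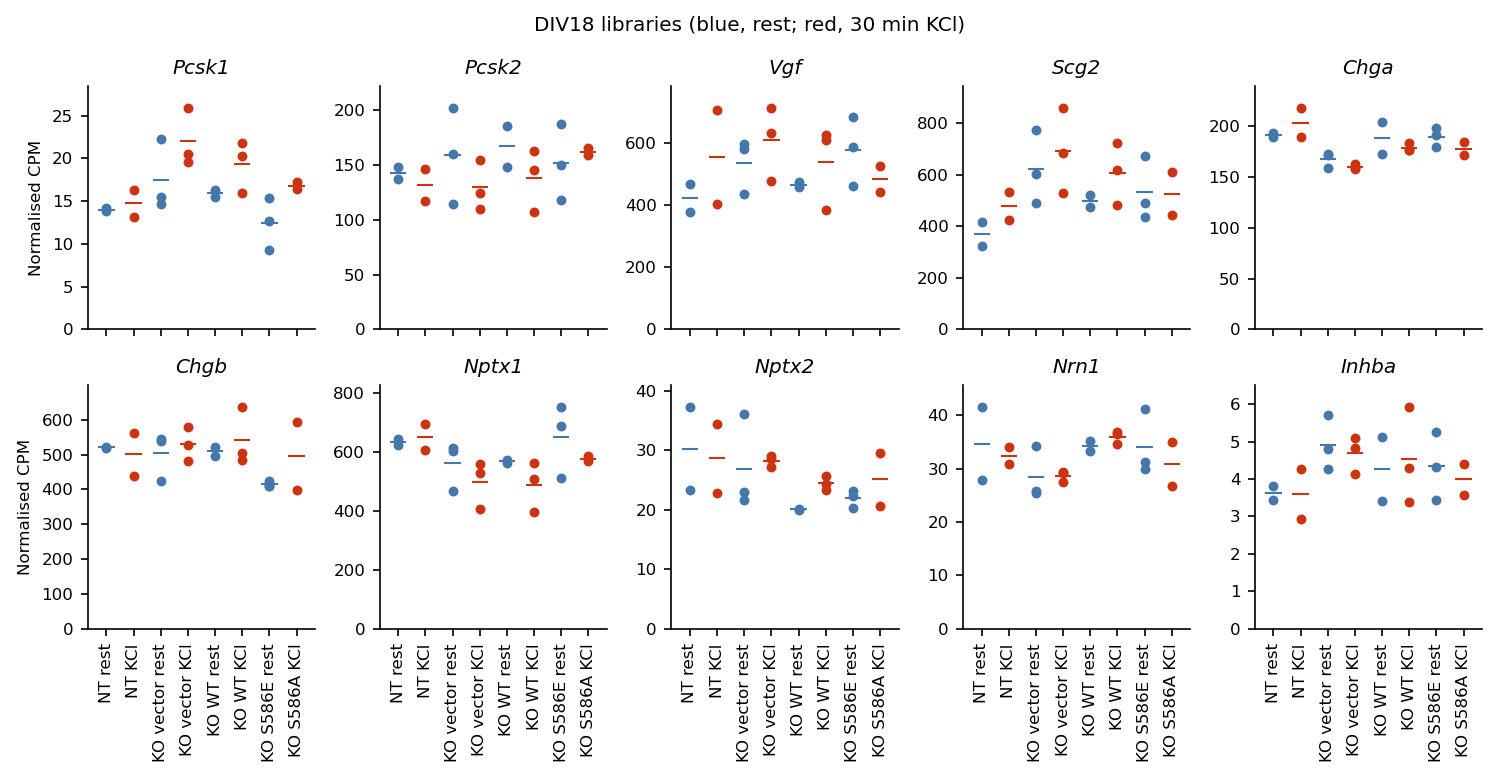
Normalised CPM of the 10 members in the 20 DIV18 libraries; points are libraries, bars group means, blue rest and red 30 min KCl, axes from 0. Chga is lower in both vector groups than in NT, Scg2 is higher, and the states of each construct overlap for most members.

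Restoring Smarcc2 was read as KO with WT against KO with vector. No member was called at rest, where 0.0143% of genes were (3 of 20940), or after KCl, where 0.00955% were (edgeR). For Chga and Scg2, the group means with WT lay between those of vector and NT. Both were picked as called in the average of KO with vector against NT, and the same vector libraries served here. Their place between the groups is thus no separate evidence of a return towards NT. Chga was at 204 and 173 CPM in resting WT and at 177, 183 and 176 after KCl, differences from vector of 0.16 (interval -0.0026 to 0.33) and 0.16 (0.01 to 0.31). Scg2 was at 519 and 473 CPM in resting WT and at 480, 619 and 722 after KCl, differences of -0.33 (-0.81 to 0.16) and -0.18 (-0.61 to 0.24). Nrn1 after KCl was at 36.5, 36.8 and 34.7 CPM in WT and at 29.4, 27.6 and 29.1 in vector. These libraries did not overlap, yet the difference of 0.33 was not called (interval 0.01 to 0.64, adjusted p = 0.999, edgeR). Of all genes tested, 5.02% were higher in WT without overlap.

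The effect of a serine that can be phosphorylated was addressed with the substituted forms. Glutamate (S586E) is widely used in place of a serine to imitate its phosphorylated form, and alanine (S586A) to prevent phosphorylation. Both were compared with WT and with vector, in the state in which each was sequenced. S586E against WT at rest called no gene (0%; 2696 at an unadjusted p under 0.05 in edgeR, no member; 323 called by DESeq2, no member), and S586A against WT after KCl called none (0%; 1824 unadjusted, no member; 11 by DESeq2, no member). S586E against vector at rest called 0.0191% of genes and S586A against vector after KCl 0.00955%, with no member in either (edgeR). Same-numbered libraries of S586E and vector deviated together, and with the number as a block the genes called rose from 4 to 14, again with no member. S586E and S586A were sequenced in different states and were not compared with each other.

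Among the values below the threshold, Pcsk1 with S586E was at 9.28, 12.7 and 15.4 CPM, beside 15.5 and 16.3 CPM in WT and 15.5, 14.7 and 22.3 CPM in vector. It was lower than in WT without overlap and overlapped vector by 1 library, with differences of -0.35 (interval -0.77 to 0.07) and -0.48 (-0.86 to -0.10; adjusted p = 0.55, edgeR). Chgb with S586E was at 409, 410 and 423 CPM, below 522 and 497 in WT and below 425, 539 and 546 in vector, a difference of -0.30 from WT (-0.62 to 0.02). Of all genes tested, 16.4% were lower with S586E than in WT without overlap, and 5.47% lower than in vector. Chga with S586E was at 198, 191 and 180 CPM, above the resting vector libraries at 159, 172 and 173. That difference of 0.18 was not called (adjusted p = 0.58, edgeR), and 5.62% of all genes were higher than in vector without overlap. Pcsk1 with S586A after KCl was at 16.4 and 17.2 CPM, a difference of -0.20 from WT (-0.62 to 0.22). Vgf with S586A was at 444 and 525 CPM, a difference of -0.16 (-0.65 to 0.33). Against vector after KCl, 3 members were higher with S586A without overlap (Pcsk2, Nptx1 and Chga) and 1 was lower (Pcsk1). Of all genes tested, 15.9% were higher and 16.1% lower in that way. The widest of the 10 intervals of S586E against WT was that of Inhba, -0.53 to 0.58, and the narrowest that of Chga, -0.15 to 0.18.

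**Figure D4:**
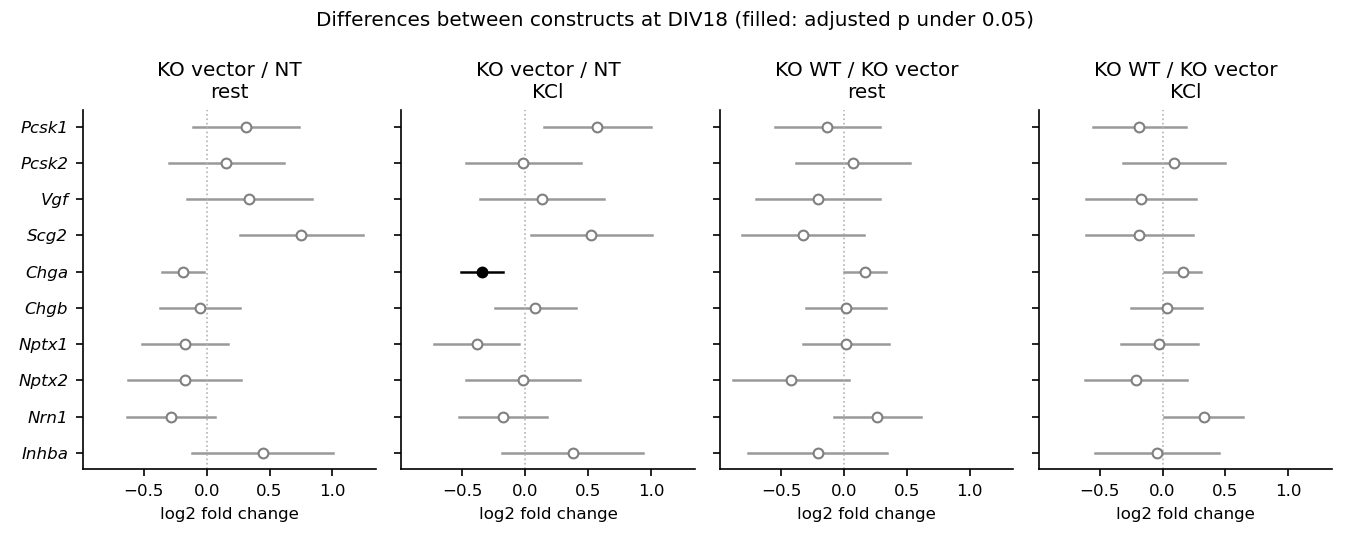
Log2 fold change of the 10 members between constructs at DIV18; points are edgeR estimates, lines 95% intervals, filled points called. Chga after KCl (-0.35) is the only filled point, and most intervals between KO with WT and KO with vector include 0.

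Spread between libraries had a pattern of its own in the 4 DIV18 groups of 3 libraries (vector at rest, vector after KCl, S586E at rest and WT after KCl). Library 3 had the highest Scg2 and the highest Pcsk1 of its group in all 4, whereas 7.43% of all genes were highest there in all 4. It had the lowest Pcsk2 and the lowest Nptx1 in all 4, whereas 8.25% of all genes were lowest there in all 4. Pcsk2, for example, was at 202, 161 and 115 CPM in libraries 1, 2 and 3 of resting KO with vector and at 188, 150 and 118 CPM with S586E. Nptx1 was at 612, 602 and 468 CPM and at 751, 687 and 512 CPM in the same groups. Vgf was lowest in library 1 in all 4 groups and highest in library 3 in 3 of them. Chga and Chgb had no such pattern, with library 3 highest in 2 and lowest in 2 groups. The labels do not say what the numbers share, and its part in the comparisons was not tested beyond the values given with libraries 1 and 2 only.

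**Figure D5:**
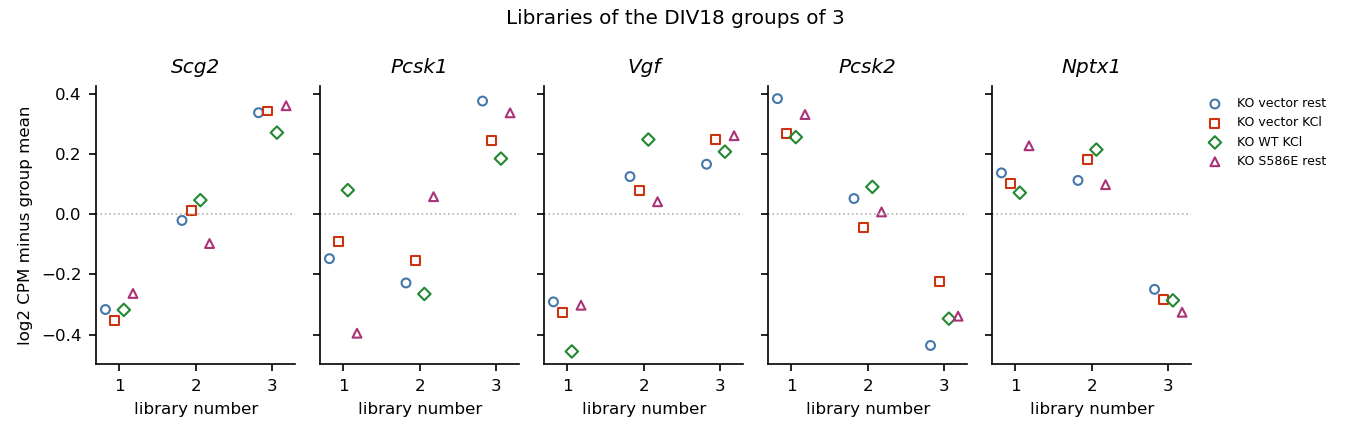
Log2 CPM minus the group mean for 5 members in the 4 DIV18 groups of 3 libraries, by library number from the labels; each symbol is 1 library. Library 3 is highest for Scg2 and Pcsk1 and lowest for Pcsk2 and Nptx1 in all 4 groups.

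Genes whose profile over the 20 DIV18 libraries was most like that of a member were found by the root-mean-square distance of scaled log2 profiles among 10633 genes. The nearest to Vgf were Gaa (0.35), Doc2b (0.46) and the neuropeptide gene Adcyap1 (0.48), beside a median distance of 1.45. Nearest to Pcsk1 were Nfxl1 (0.36), Cars (0.42) and Polk (0.44), and among the nearest to Scg2 were Adcy8 (0.39) and Thsd4 (0.45). For Inhba they were Klf5 (0.56), Cnrip1 (0.59) and Cntn3 (0.65). Nptx2 had no gene as near: Pik3cd, Spry4 and Rbpj stood at 0.76, 0.77 and 0.80. These libraries share groups, numbers and depth, so the distances are a description only.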

How the data were processed

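RNA-seq tables of 24 libraries were used, each deposited as estimated counts, TPM and effective length per transcript, per the file headers. The authors' expected (estimated) counts came from kallisto, with FastQC and cutadapt also named, per the submitters' processing notes; versions, build and annotation are not given in the sources used here. The deposited TPM values give levels per length, and the deposited effective lengths served only for length offsets. Of 142552 transcripts, 141429 (99.2%) matched GENCODE M21 by identifier, and unmatched ones held at most 0.467% of a library's counts. Counts were summed per gene and rounded.

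The test was edgeR 4.0.16 (R 4.3.3; TMM, filterByExpr, quasi-likelihood F test, two-sided, Benjamini-Hochberg over all genes tested, called at adjusted p under 0.05). DIV7 was fitted alone and the 20 DIV18 libraries together in 8 groups (coefficients of variation 6.44% and 14.6%, 2 and 12 residual degrees of freedom). CPM use TMM factors; intervals are 95%. DESeq2 1.42.0 and the other alternatives are described with the sensitivity results.

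The members and lists were chosen with earlier results of these data known. Named were all members, Smarcc2, Fos, each called gene of the partner lists, and the 3 genes nearest in profile to 5 members with a mean of at least 5 CPM (1 such gene is not reported here); cell markers were named after their values were seen. Replicate numbers were checked by correlating deviations from group means: with 3 pairs, every correlation was over 0.1 for S586E and vector at rest (0.293, 0.103 and 0.291) and for WT and vector after KCl (0.106, 0.114 and 0.236). Depolarization for 10 min, named in the design, was not analysed here.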

Additional observations from a re-analysis of the deposited data

Results flagged for a closer look

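The KCl response of Pcsk1 at DIV7 exceeded that of DIV18 NT by 2.27 on the log2 scale, and it is listed here because the effect of the same stimulus differed between the 2 ages by a test of the difference itself (adjusted p = 7.04e-05, edgeR, all 24 libraries). The 2 depolarized DIV7 libraries were above both resting ones, and the 2 depolarized NT libraries lay on either side of the resting ones. The test was added after seeing the data, and the difference was 2.11 to 2.43 under the 14 alternatives. In the same fit the Fos response also differed, by 3.88 (adjusted p = 0.015, edgeR). Age, library type, DMSO and the guide cannot be told apart in it.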

How the results depend on the processing

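Each comparison was refitted with size factors by median of ratios, with DESeq2, with no filter on low counts, with offsets from effective lengths, with a replicate block, by a fit of only the groups compared (not at DIV7) and by leaving out each library in turn. Fits with only libraries 1 and 2, blocked fits of the knockout cultures alone and the whole comparison of ages were added after seeing the data. Where a group kept 1 library, that library was assumed to vary like the other groups.

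At DIV7, 3 members were called, 6 without the filter, 8 with the replicate block (Scg2 and Pcsk2 among them) and 2 to 6 with 1 library left out (6 without depolarized library 2). In NT 1 member (against 0) and in the mean KCl response 3 (against 0) were called without the filter. For the loss of Smarcc2 at rest, 2 members were called without the filter and 2 with the block, and 0 to 1 with a library left out (1 without vector library 1). After KCl, 4 were called without the filter, 0 with only libraries 1 and 2, and 0 to 1 with a library left out. In the average, 5 were called without the filter and 1 to 3 with a library left out. S586E against WT gave 1 (Nptx1) in the blocked fit of the knockout cultures, and S586A against vector gave 1 without the filter. The number of members called was 0 in the other comparisons under every alternative run, and 1 (Pcsk1) throughout between ages, at 2.11 to 2.43. The cause of these shifts was not tested.

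Of 22 member values with an unadjusted p under 0.05, 0 changed sign; of 148 others, 83 changed sign and 12 were called somewhere. Genes called moved more. At DIV7, 3371 became 1932 by DESeq2, 5854 with the block and 1459 to 2356 with a library left out. Without the filter the counts became 192 in NT (from 2), 515 in vector (from 15), 196 in WT (from 9) and 442 in their mean (from 94). They became 448 and 116 for the differences of response (from 0 and 0), and 2016, 1438 and 3003 for KO with vector against NT at rest, after KCl and on average (from 1236, 560 and 2348). They became 604 and 127 for WT against vector (from 3 and 2), 782 and 225 for S586E and S586A against WT (from 0 and 0), 315 and 531 against vector (from 4 and 2), and 657 between ages (from 408). With a library left out, KO with vector against NT gave 100 to 1031 at rest, 37 to 241 after KCl and 1095 to 2273 on average; the fit of only those groups gave 225 at rest, and length offsets gave 278 after KCl.

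Over all genes, same-numbered libraries did not deviate together at DIV7 (correlation 0.02) or in NT (-0.05). Most members at DIV7 did share an order. Library 1 was above library 2 in both states for Vgf, Pcsk1, Scg2, Nrn1, Nptx1, Nptx2, Chga and Chgb, and below it for Inhba. For Pcsk2 the libraries were level after KCl. The labels do not say what a number shares, and whether the block is apt at DIV7 was not tested. For S586E against vector at rest and WT against vector after KCl, where every correlation was over 0.1, the replicate block changed no member call. The block did change member calls at DIV7 and for the loss of Smarcc2 at rest. In the blocked fit of the knockout cultures, a call also changed for S586E against WT. With 2 to 3 libraries a group, Inhba, near 4 CPM at DIV18, had the widest interval of the members for S586E against WT. In the comparison of ages, the interval of Nptx2 (-0.21 to 1.33) was wider than that of Inhba (-1.17 to 0.33).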
